A study of Homo sapiens with 9 samples.

Results

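The transcription factor AP-1 is built from a family of related subunits, and 9 of them were described here: FOSL1, FOSL2, FOS, FOSB, JUN, JUNB, JUND, ATF3 and BATF3. Their probe sets were those that the HG-U133 Plus 2.0 annotation assigns to 1 gene symbol only, that symbol being a member. This gave 21 probe sets of 9 genes, out of 54613 probe sets tested and 19775 genes measured in all. The cells were MDA-MB-231, an established line from a triple-negative breast cancer, reverse transfected with Lipofectamine 2000 in 6-well dishes at 600000 cells per well. The 3 groups of 3 replicates received AllStar (a negative control small RNA), Qmimic or Dmimic, each at a final concentration of 10 nM. Total RNA was taken at 48 h for 1 array per replicate. Every group therefore shared the transfection and its reagent, and no untransfected cells were analysed here. The series title names the receptor tyrosine kinase AXL and the microRNA miR-34a, while the labels leave the letters Q and D unexplained and carry no mimic sequence. The labels call the 3 arrays of a group biological replicates and do not say whether these were wells of 1 experiment or separate transfections. The p-values measure the spread between these replicates, all of a single cell line. All levels below are log2 RMA signals, and all differences are on the log2 scale.

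AP-1 is a dimer of basic leucine zipper proteins. JUN proteins pair with one another, with FOS proteins or with ATF and BATF proteins, whereas FOS proteins need a JUN partner to bind DNA. The FOS and JUN genes are classic immediate early genes, switched on by growth factor and stress signals through the RAS-ERK and JNK kinase cascades. FOSL1, also called FRA-1, is known as an abundant AP-1 subunit of basal-like and mesenchymal breast cancer lines, where it has been tied to invasion.

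The mature sequence of miR-34a is shown because the series title names it, not because either mimic is known to carry it. It is printed from 5′ to 3′ with the seed, bases 2 to 8, in capitals, beside the other mature human miRNAs of the RefSeq table (GRCh38.p14) that hold the same seed, GGCAGUG. Of 2545 mature miRNAs in that table, 3 held it. The count covers that table only, and mature miRNAs missing from it were not searched. The positions of the 3 are chr1:9151735-9151756, chr5:55170586-55170607 and chr5:55170706-55170727, all on the minus strand.
hsa-miR-34a-5p: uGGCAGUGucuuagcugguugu
hsa-miR-449a: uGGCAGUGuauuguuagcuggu
hsa-miR-449b-5p: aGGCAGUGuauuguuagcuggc

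The control array AllStar replicate 3 stood apart from the other 8, so the comparisons with AllStar are given with it and without it. Its correlation with the other arrays over all probe sets was 0.974 to 0.981, and its 18S ribosomal RNA probe sets averaged 8.73 against 5.27 to 6.26 elsewhere. Relative to the mean of the other AllStar arrays, its median deviation was 0.21 for probe sets at a level of 4 to 6, -0.26 at 6 to 8, -0.45 at 8 to 10 and -0.34 at 10 to 12. Of the basal and mesenchymal breast line markers, 9 of 10 had a mean level of 8 or more (VIM 13.66, with SPARC at 3.75). The 9 include KRT18 (12.55), a keratin as KRT8 of the luminal list is, and so not particular to such lines. Of the leukocyte markers, 8 of 8 measured were under 6, with array means of 4.60 to 4.96. Of the fibroblast and endothelium markers, 6 of 10 were under 6, with array means of 5.23 to 5.45, and COL1A1 (7.27), PDGFRB (6.94), PECAM1 (6.33) and KDR (6.11) were not. The luminal markers were mixed: 3 of 10 had a mean level of 8 or more, KRT8 (10.67), ERBB2 (8.59) and GATA3 (8.35). CDH1 (3.67), PGR (4.05), FOXA1 (3.94) and TFF1 (5.18) were the 4 under 6. EPCAM (7.95), ESR1 (6.9) and ELF3 (6.58) lay between.

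The AP-1 probe sets did not share a single offset on that control array. JUN 201466_s_at, FOSL2 228188_at and FOSL2 225262_at read 0.67, 0.73 and 0.62 lower there than on the other control arrays. FOSL1 read 0.25 lower, FOSL2 218881_s_at 0.10 lower and BATF3 0.01 higher. A level between 8 and 10 in the controls therefore went with a control mean pulled down by this array, and a comparison over all 9 arrays was shifted upward for such probe sets.

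**Figure D1:**
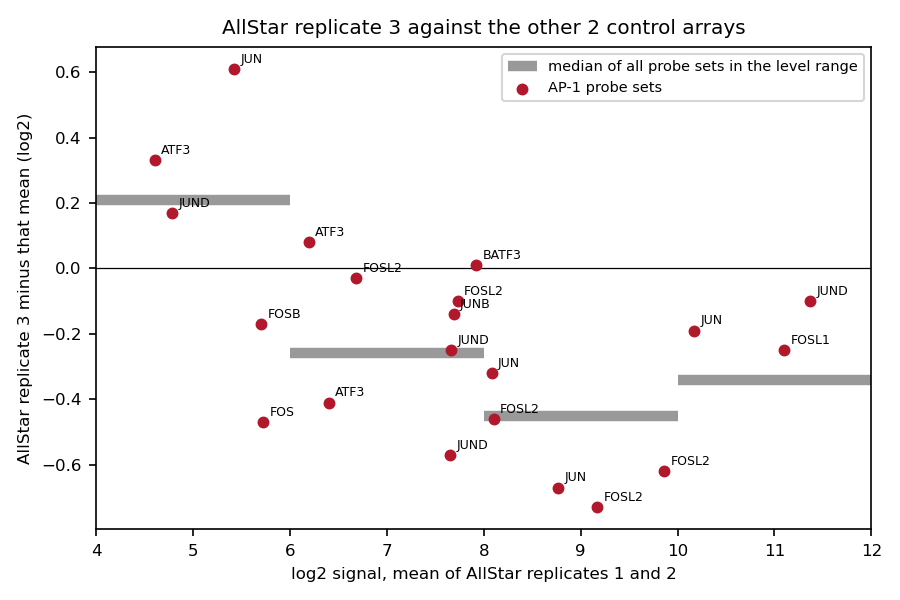
Deviation of AllStar replicate 3 from the mean of AllStar replicates 1 and 2 (y axis, log2) against that mean (x axis, log2 RMA signal) for the 21 AP-1 probe sets (red points, with gene symbols); grey bars mark the median deviation of all probe sets in 4 ranges of level. FOSL1 lies at -0.25, and the FOSL2 and JUN points near a level of 9 lie between -0.73 and -0.62.

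The comparison of each mimic with AllStar asks which subunits the small RNAs change, and the mean of both mimics against AllStar uses 6 arrays against 3. Among the 21 probe sets, FOSL1 was the lone one called over both mimics with all 9 arrays. It stood about 2-fold below the control in each mimic group. Without AllStar replicate 3, FOSL1 and 1 of the 5 FOSL2 probe sets were called lower for each mimic and over both. JUNB was higher with both mimics by less than the 1.5-fold threshold, and JUN, FOS, FOSB and ATF3 gave no call. A probe set was called when its limma p, adjusted by Benjamini-Hochberg over all 54613 probe sets, was under 0.05 and its difference at least 1.5-fold.

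FOSL1 (gene ID 8061, GRCh38.p14 chr11:65892049-65900545) was measured by 1 probe set, 204420_at. Its levels were 11.09, 11.10 and 10.85 on AllStar replicates 1, 2 and 3. On the Qmimic arrays they were 9.73, 10.08 and 10.07, and on the Dmimic arrays 10.06, 10.23 and 9.66. All 6 mimic arrays lay below all 3 control arrays, and the lowest control array was AllStar replicate 3. The group means were 11.01 ± 0.14, 9.96 ± 0.20 and 9.98 ± 0.29 in the order AllStar, Qmimic, Dmimic (SD, n = 3). The 2 mimic groups overlapped throughout, and the single array lowest in FOSL1 was Dmimic replicate 3.

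Over both mimics FOSL1 fell by 1.04 (SE 0.14, 2.06-fold; limma adjusted p = 0.0401), and without AllStar replicate 3 it fell by 1.13 (adjusted p = 0.00637). Permuting the labels of the 6 mimic and 3 AllStar arrays gave an exact two-sided p = 0.0119, the smallest that this number of arrays allows. For Qmimic alone the difference was -1.05 (SE 0.16, adjusted p = 0.111) with all 9 arrays and -1.14 (SE 0.15, adjusted p = 0.0109) without AllStar replicate 3. For Dmimic alone it was -1.03 (SE 0.16, adjusted p = 0.069) and -1.12 (adjusted p = 0.0127). Neither mimic alone passed in the first of these fits and both passed in the second. Some alternatives that keep all 9 arrays gave the calls too. Array weights did so while giving AllStar replicate 3 a weight of 0.06, against 0.9 and 5.17 for AllStar replicates 1 and 2. Among all probe sets, 7 had a more negative difference than FOSL1 with Qmimic, 14 with Dmimic and 8 over both mimics with all 9 arrays, and 8, 22 and 10 without AllStar replicate 3.

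The call over both mimics did not survive the loss of most single arrays. Leaving out any 1 of the 9 arrays gave differences of -1.13 to -0.96. The adjusted p was 0.0674 to 0.156 without AllStar replicate 1, AllStar replicate 2 or any 1 of the 6 mimic arrays, and the call remained only without AllStar replicate 3. From arrays of whole wells, less FOSL1 RNA per cell and fewer cells holding it cannot be told apart.

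FOSL2, also called FRA-2, is the closest relative of FOSL1 (gene ID 2355, chr2:28392858-28417317), and its 5 probe sets did not read alike. On 218881_s_at the AllStar levels were 7.73, 7.73 and 7.63. The same probe set gave 7.04, 7.18 and 7.12 with Qmimic and 7.19, 7.34 and 6.80 with Dmimic. Here too all 6 mimic arrays lay below all 3 control arrays, and Dmimic replicate 3 was the lowest. The difference over both mimics was -0.58 (adjusted p = 0.0647) with all 9 arrays, and without AllStar replicate 3 the probe set fell by 0.62 (adjusted p = 0.0253). In that second fit it fell by 0.62 with each mimic (adjusted p = 0.0462 for Qmimic and 0.0398 for Dmimic), against adjusted p-values of 0.172 and 0.132 with all 9 arrays.

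On FOSL2 225262_at the AllStar levels were 9.81, 9.91 and 9.24. They were 9.26, 9.47 and 9.48 with Qmimic and 9.36, 9.58 and 9.01 with Dmimic. AllStar replicate 3 lay within the range of the mimic arrays, and the other control arrays lay above all 6. The difference over both mimics was -0.29 (adjusted p = 0.33) and became -0.50 (adjusted p = 0.0612) without AllStar replicate 3. The remaining FOSL2 probe sets differed by 0.04 (228188_at), -0.02 (218880_at) and -0.06 (205409_at) with all 9 arrays, and by -0.21, -0.17 and -0.07 without that array. All 5 FOSL2 probe sets then had a negative difference, and 1 of the 5 was called.

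FOS and FOSB, the founding members of their family, lay close to the array medians over all probe sets, 5.44 to 5.60. FOS 209189_at read 5.69, 5.74 and 5.25 with AllStar, 5.68, 5.49 and 5.83 with Qmimic, and 5.73, 5.78 and 5.88 with Dmimic. FOSB 202768_at read 5.72, 5.68 and 5.53, then 5.57, 5.76 and 5.55, then 5.37, 5.54 and 5.82 in the same order. The 3 groups overlapped for both genes. Over both mimics the differences were 0.17 (95% half-width 0.27) for FOS and -0.04 (half-width 0.24) for FOSB, and 0.02 (half-width 0.19) and -0.10 (half-width 0.23) without AllStar replicate 3.

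**Figure D2:**
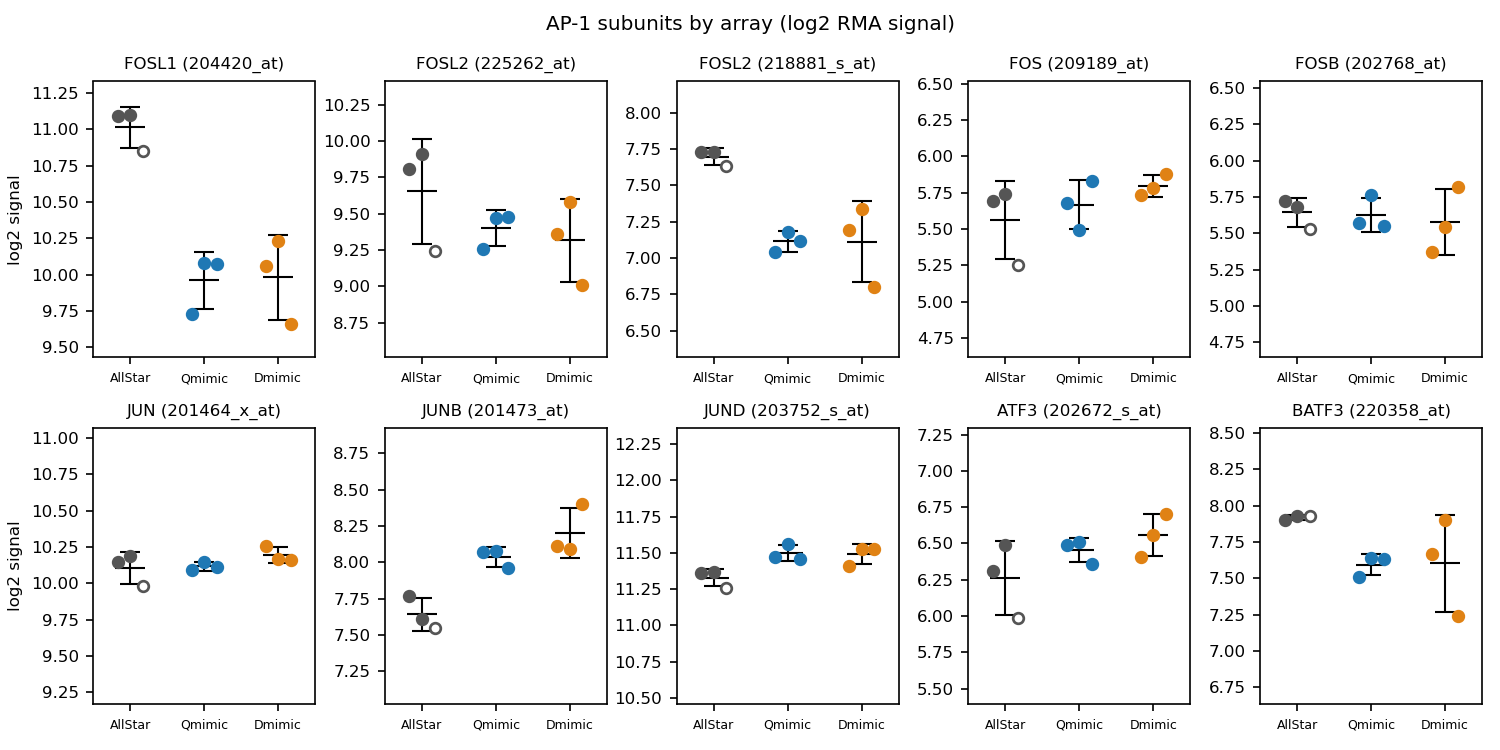
Log2 RMA signal (y axis) of the strongest probe set of each of 9 AP-1 genes, and of FOSL2 218881_s_at, on each array, by group (x axis); points are arrays in replicate order, the open circle is AllStar replicate 3, and horizontal lines with bars are the mean and SD of 3 arrays. FOSL1 lies at 10.85 to 11.10 with AllStar and at 9.66 to 10.23 with the mimics, and every panel spans the same height on the log2 scale.

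JUNB (gene ID 3726, chr19:12791486-12793315) encodes a JUN protein that is often the weaker activator of the JUN family. Its levels on 201473_at were 7.77, 7.61 and 7.55 with AllStar. They were 8.07, 8.08 and 7.96 with Qmimic and 8.11, 8.09 and 8.40 with Dmimic. All mimic arrays lay above all control arrays, and Dmimic replicate 3, the lowest array in FOSL1, was the highest in JUNB. The difference over both mimics was 0.48 (adjusted p = 0.0697), and without AllStar replicate 3 it was 0.43 (1.35-fold, adjusted p = 0.0363). With Dmimic alone the second fit gave 0.51 (1.43-fold, adjusted p = 0.0342) and with Qmimic alone 0.34 (adjusted p = 0.11). With all 9 arrays these differences were 0.56 (adjusted p = 0.101) and 0.39 (adjusted p = 0.202). None of these reached the 1.5-fold threshold.

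JUND, a JUN protein that is expressed at a steady level in many cells, had 4 probe sets. The strongest, 203752_s_at, read 11.36, 11.37 and 11.26 with AllStar, 11.47, 11.56 and 11.46 with Qmimic, and 11.41, 11.53 and 11.53 with Dmimic. The mimic arrays were all above the controls, by a small margin: the difference over both mimics was 0.16 (adjusted p = 0.254) and 0.13 (adjusted p = 0.296) without AllStar replicate 3. The probe set 229117_s_at, near background at 4.29 to 4.94, ran the other way, with -0.35 for Dmimic (adjusted p = 0.242), and -0.29 (adjusted p = 0.149) without AllStar replicate 3. The 2 others carry the suffix x, which marks probes that can also match other transcripts. They differed by 0.13 and 0.25 over both mimics, and by 0.05 and 0.06 without the outlying control array.

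JUN, the protein that gave the family its name, had 4 probe sets and no call on any of them. On 201464_x_at the levels were 10.15, 10.19 and 9.98 with AllStar, 10.09, 10.15 and 10.11 with Qmimic, and 10.26, 10.17 and 10.16 with Dmimic. The AllStar arrays overlapped both mimic groups, and the difference over both mimics was 0.05 (half-width 0.17), or -0.01 (half-width 0.13) without AllStar replicate 3. On 201466_s_at a difference of 0.21 with all 9 arrays became -0.01 without that array, where the probe set read 8.09 against 8.74 and 8.79 on the other controls. The low probe set 213281_at gave 0.02 and 0.22 (adjusted p = 0.21). On 201465_s_at the difference over both mimics was 0.06 (half-width 0.28), or -0.05 (half-width 0.26) without AllStar replicate 3.

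ATF3, a stress-induced member that can repress transcription as a homodimer, had 3 probe sets. On 202672_s_at the levels were 6.31, 6.49 and 5.99 with AllStar, 6.49, 6.51 and 6.36 with Qmimic, and 6.41, 6.56 and 6.70 with Dmimic. Groups overlapped, and the difference over both mimics was 0.24 (adjusted p = 0.275) with all 9 arrays and 0.11 (adjusted p = 0.564) without AllStar replicate 3. The other ATF3 probe sets differed by -0.07 and -0.01 over both mimics, and by -0.05 and 0.10 without that array.

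BATF3, known for its role in dendritic cell development, pairs with JUN proteins and lies on chromosome 1 as ATF3 does. Its levels on 220358_at were 7.90, 7.93 and 7.93 with AllStar, 7.51, 7.64 and 7.63 with Qmimic, and 7.67, 7.90 and 7.24 with Dmimic. The mimic arrays lay below the controls, but Dmimic replicate 2 came within rounding of the lowest control. The spread with Dmimic (SD 0.33) was the widest, against an SD of 0.02 with AllStar. The difference over both mimics was -0.32 in both fits (adjusted p = 0.221 and 0.23), and it was not called.

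Counting probe sets puts these values beside the background of the whole array. With Qmimic, 0 of 21 member probe sets were called by limma, as were 0% of all probe sets, while 4 members and 8924 probe sets in all (16.3%) had an unadjusted p under 0.05. Dmimic gave 0 of 21 against 0.00549% of all probe sets (0% called lower), with 5 members and 7004 probe sets in all (12.8%) at an unadjusted p under 0.05. Over both mimics 1 of 21 was called, lower, against 0.0806% of all probe sets in either direction and 0.00732% called lower. The fit without AllStar replicate 3 called 2 of 21 for Qmimic (0.54% of all probe sets, 0.242% lower), 2 of 21 for Dmimic (0.864%, 0.434% lower) and 2 of 21 over both (0.721%, 0.341% lower). In each case these were FOSL1 and FOSL2 218881_s_at, both lower.

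Groups that did not overlap were common on these arrays. Mimic and control arrays did not overlap for 5 member probe sets with Qmimic (24.8% of all probe sets), for 6 with Dmimic (18.9%) and for 5 over both mimics (12.2%). The 5 over both mimics were FOSL1, FOSL2 218881_s_at and BATF3, lower (3.83% of all probe sets), and JUNB and JUND 203752_s_at, higher (8.33%). Without AllStar replicate 3 the counts were 9 for Qmimic (37.9%), 9 for Dmimic (33.5%) and 7 over both (20.6%). The median difference of the 21 probe sets over both mimics was 0.02, beside -0.03 for all probe sets, and without AllStar replicate 3 it was -0.05 beside -0.01. Over both mimics 11 member probe sets had a positive and 10 a negative difference with all 9 arrays, and 8 and 13 without that array.

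**Figure D3:**
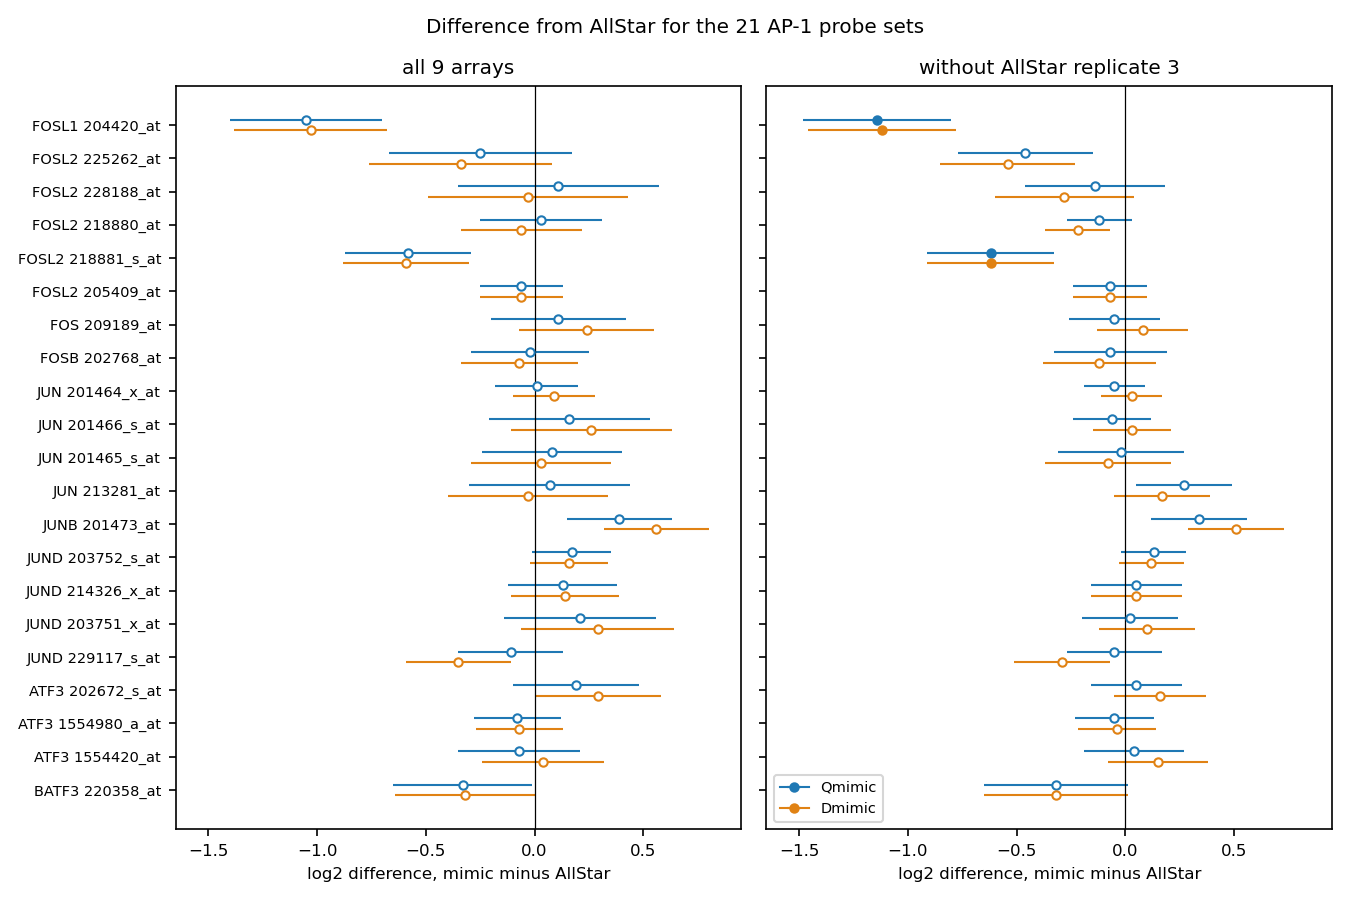
Log2 difference from AllStar (x axis) with its 95% interval from limma for the 21 AP-1 probe sets (y axis), with Qmimic in blue and Dmimic in orange, for all 9 arrays (left) and without AllStar replicate 3 (right); filled circles were called. FOSL1 and FOSL2 218881_s_at are filled in the right panel only, and the probe sets of JUN, FOS, FOSB and ATF3 are open in both.

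The comparison of Qmimic with Dmimic asks whether the mimics differ from each other. For FOSL1 the difference, Qmimic minus Dmimic, was -0.02 with a 95% half-width of 0.35, and the half-width was 0.31 without AllStar replicate 3. FOSL2 218881_s_at differed by 0.01 (half-width 0.29), BATF3 by -0.01 (half-width 0.32) and JUNB by -0.17 (half-width 0.24). No member probe set was called by limma in either fit, against 0% and 0.0806% of all probe sets, and 4 members had groups that did not overlap, against 16.1%. The count at an unadjusted limma p under 0.05 was 0 of 21 with all 9 arrays and 1 of 21 without AllStar replicate 3, the latter being JUND 229117_s_at at 0.24. Both mimics share the same control arrays, so their like differences from AllStar are not separate observations.

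Across the arrays, some members tracked FOSL1 and others ran against it. The Pearson correlation with FOSL1 over the 9 arrays was 0.98 for FOSL2 218881_s_at, 0.86 for BATF3 and -0.89 for JUNB. These values hold the difference between control and mimic arrays, so the same was taken from deviations from the group mean over the 6 mimic arrays, where it was 0.93, 0.92 and -0.84. The FOSL2 probe sets 225262_at and 228188_at gave 0.98 and 0.99 within the mimic groups, beside 0.73 and 0.22 over all 9 arrays and 0.94 and 0.70 over 8. JUND 203752_s_at gave -0.75 over 9 arrays and 0 within the mimic groups. Dmimic replicate 3 was the lowest array for FOSL1, FOSL2 218881_s_at and BATF3 and the highest for JUNB. The correlations rest on few arrays that share their normalisation, and they are given as a description.

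The genes most like FOSL1 over the 9 arrays were taken from 1947 genes with a mean level of at least 6 and an SD of at least 0.3. They were ARPP19 (r = 0.988), an inhibitor of protein phosphatase 2A at mitotic entry, MPV17L2 (0.98), the homeobox repressor TGIF2 (0.979), the TFIID subunit TAF5 (0.968), the ceramide synthase CERS5 (0.967), the NKG2D ligand ULBP2 (0.967), the replication factor GINS3 (0.965) and the nucleoside transporter SLC29A1 (0.959). From deviations from the group mean, here over all 9 arrays rather than the mimic arrays only, r was 0.998 for ARPP19. It was 0.771 for CERS5 and between these for the other 6. Over both mimics ULBP2 fell by 0.72 (adjusted p = 0.043), and the other 7 differed by -0.99 to -0.59 with adjusted p-values of 0.052 to 0.0832. Without AllStar replicate 3 the 8 correlations were 0.963 to 0.99. All 8 genes were called in that fit, beside 1.04% of all genes. Their differences were -1.10 to -0.61, with adjusted p-values of 0.00609 to 0.0255. FOSL1 itself differed between control and mimic arrays, so choosing genes by likeness to it favours genes that differ too. These calls are not separate support. The 4 genes furthest in the other direction were PIERCE1 (-0.975), the histone H2BC5 (-0.968), the chromatin protein HMGA2 (-0.955) and OSCP1 (-0.955). HMGA2 rose by 1.22 (adjusted p = 0.0341) and OSCP1 by 1.72 (adjusted p = 0.0401) over both mimics, and by 1.12 and 1.67 without that array. PIERCE1 and H2BC5 differed by 0.81 and 0.82, and rose by 0.84 and 0.79 without it (adjusted p = 0.0163 and 0.0194).

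The promoters of the members were searched for the sites that AP-1 and its relatives bind. The RefSeq table (GRCh38.p14) held 8 promoters for 7 of the 9 members, each with 250 bases before and 50 after the start. FOSL1 and BATF3 had no promoter there, so neither was searched. Searching both strands, the AP-1 site TGANTCA was in 1 of the 8, against 7.71% of 35116 promoters of the same length. The CRE site TGACGTCA was in 1 (1.85% of all), and TGACATCA, the variant known from the JUN promoter, in 2 (2.61%). The matches are shown in capitals. FOSL2 was called on 1 of its 5 probe sets in the fit without AllStar replicate 3, and on none in the fit to all 9 arrays. The others are members that were not called. Counted from the start, the first base of the match is at -67 in JUN, -123 in ATF3, 5 in FOSL2 and -200 in JUND. The windows lie at chr1:58784081-58784140 (minus strand), chr1:212565258-212565317 (plus), chr2:28392851-28392880 (plus) and chr19:18281789-18281848 (minus). A match describes these letters and is not evidence of binding.
JUN: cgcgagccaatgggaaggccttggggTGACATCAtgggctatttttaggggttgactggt
ATF3: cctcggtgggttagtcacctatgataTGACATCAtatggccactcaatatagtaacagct
FOSL2: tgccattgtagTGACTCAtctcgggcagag
JUND: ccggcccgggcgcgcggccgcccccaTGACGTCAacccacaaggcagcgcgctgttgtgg

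Genes around AP-1 were read from 8 lists, each gene represented by its strongest probe set. With all 9 arrays limma called 0 genes of any list for either mimic or over both, beside 0% of all genes for Qmimic, 0.0101% for Dmimic and 0.131% over both. The fit without AllStar replicate 3 called a few, beside 0.693% of all genes for Qmimic, 1.27% for Dmimic, 1.04% over both and 0.0961% between the mimics. An unadjusted limma p under 0.05 over both mimics was common: 24.1% of all genes had one with all 9 arrays, and 23% without AllStar replicate 3. The list counts at that p stand beside this background. Lists are given by counts and medians, and none was tested as a set.

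Among kinases of the RAS and ERK cascade, which feeds FOSL1, 0 of 14 measured genes were called with all 9 arrays, although for 7 the unadjusted limma p over both mimics was under 0.05. The level of MAP2K1, which encodes the ERK kinase MEK1, was 10.23 ± 0.25, 9.76 ± 0.16 and 9.68 ± 0.23 in the AllStar, Qmimic and Dmimic groups (SD, n = 3). Its difference over both mimics was -0.51 (adjusted p = 0.121), and in the second fit it fell by 0.65 (adjusted p = 0.0216), with calls for Qmimic and for Dmimic too. ARAF, a RAF kinase, fell by 0.66 with Dmimic in that fit (adjusted p = 0.0192), on the stronger of its 2 probe sets, while the other gave 0.08. With all 9 arrays the 2 gave -0.58 and 0.25. MAP2K2 and the adaptor SHC1 differed by 0.35 and 0.37 over both mimics with all 9 arrays, by 0.28 and 0.25 in the second fit, and were not called. The 3 MAP2K2 probe sets spanned -0.25 to 0.35 with all 9 arrays and -0.09 to 0.28 in the second fit. The list median was 0.12 over both mimics, and 0.05 without the outlying array.

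The genes that ERK activity induces gave 0 calls of 18 in either fit, with 9 at an unadjusted limma p under 0.05 over both mimics in each. The ERK phosphatase DUSP6 read 11.93 ± 0.32, 12.41 ± 0.12 and 12.48 ± 0.04 with AllStar, Qmimic and Dmimic. Its difference over both mimics was 0.51 (adjusted p = 0.108), and 0.33 (adjusted p = 0.0402) without AllStar replicate 3, under the 1.5-fold threshold. The feedback inhibitors SPRY2 and SPRED1 differed by 0.46 and 0.59, and the ephrin receptor EPHA4 by 0.32. Without that array they differed by 0.32, 0.31 and 0.31, and the 3 SPRED1 probe sets spanned -0.13 to 0.31. The 5 EPHA4 probe sets spanned -0.03 to 0.75 with all 9 arrays and -0.03 to 0.44 without AllStar replicate 3. The list median of 0.23 became 0.09 without that array.

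The JNK and p38 cascade, which phosphorylates JUN, gave 0 calls of 14 in either fit, with 6 and 4 at an unadjusted limma p under 0.05 over both mimics. MAP3K1 differed by 0.49 and MAP2K4, a JNK kinase, by 0.53 over both mimics, and by 0.40 (adjusted p = 0.0267) and 0.39 (adjusted p = 0.0288) without AllStar replicate 3. Both stayed under 1.5-fold in that fit. The other MAP3K1 probe set differed by 0.05 over both mimics with all 9 arrays, and by -0.13 in that fit. MAP3K11 and MAPK10 differed by -0.23 and -0.30, and by -0.29 and -0.15 in that fit. The list median over both mimics was -0.04 with all 9 arrays, and -0.02 without AllStar replicate 3.

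Of 29 measured genes reported as AP-1 targets, 0 were called for either mimic or over both in either fit, and the list median over both mimics was 0.06 with all 9 arrays and 0.00 without AllStar replicate 3. At an unadjusted limma p under 0.05 there were 10 and 8 of the 29 over both mimics. The collagenase MMP1, a textbook AP-1 target, read 9.52 ± 0.37 with AllStar and 10.08 ± 0.09 and 10.20 ± 0.18 with the mimics. Its difference over both mimics was 0.62 (adjusted p = 0.102), then 0.40 (adjusted p = 0.0438). The cytokine LIF differed by 0.52 and 0.51 (adjusted p = 0.0341) and the chemokine CXCL1 by 0.62 and 0.51 (adjusted p = 0.0462). AXL, the receptor that the series title names, went the other way: 12.45 ± 0.27 with AllStar, 11.74 ± 0.17 with Qmimic and 11.72 ± 0.15 with Dmimic. Its difference over both mimics was -0.72 (adjusted p = 0.0605) on this probe set, and -0.56 (adjusted p = 0.0215) without AllStar replicate 3, while its other probe set was called in that fit.

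Other immediate early genes and the YAP and TEAD factors each gave 1 call in the second fit. With all 9 arrays, 5 of 19 measured immediate early genes had an unadjusted limma p under 0.05 over both mimics. The second fit gave 7, and the list median went from 0.11 to 0.01. For the YAP and TEAD factors these counts were 9 and 5 of 13, and the median went from 0.29 to 0.12. EGR1, a zinc finger factor of the early growth response, read 8.20 ± 0.14, 8.75 ± 0.05 and 9.03 ± 0.31 with AllStar, Qmimic and Dmimic. It rose by 0.62 over both mimics without AllStar replicate 3 (adjusted p = 0.0339), on 1 of its 3 probe sets, against 0.69 (adjusted p = 0.0605) with all 9 arrays. ANKRD1, a classic YAP target, rose by 0.85 in that fit (adjusted p = 0.0304), against 1.10 (adjusted p = 0.064). The cyclooxygenase PTGS2 differed by 1.12 (adjusted p = 0.131), and by 0.76 (adjusted p = 0.148) in the second fit, with an SD of 0.68 among AllStar arrays and 0.63 among Dmimic arrays. Of the other YAP and TEAD genes, the kinases LATS1 and LATS2 differed by 0.76 and 0.54 and the cofactor VGLL3 by 0.57, without a call. Their differences without AllStar replicate 3 were 0.35, 0.39 and 0.33, again without a call. Over both mimics the 4 LATS1 probe sets spanned -0.11 to 0.76 with all 9 arrays and -0.08 to 0.35 without that array.

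Among the other leucine zipper factors, 0 of 23 measured genes were called with all 9 arrays, although for 7 the unadjusted limma p over both mimics was under 0.05. The second fit gave 11 at that p, and the list median went from 0.16 to 0.08. CEBPD differed by 0.47 over both mimics (adjusted p = 0.0637) and by 0.45 (adjusted p = 0.0275) without AllStar replicate 3, under the 1.5-fold threshold, and ATF6, BACH1 and NFE2L3 by 0.38, 0.58 and 0.47. For the last 3 the second fit gave 0.25, 0.34 and 0.27, and the other NFE2L3 probe set was called higher there for each mimic and over both (0.68). Over both mimics the 3 BACH1 probe sets spanned -0.18 to 0.58 with all 9 arrays and -0.12 to 0.34 in the second fit. The repressor NFIL3 fell by 0.63 with Dmimic in the second fit (adjusted p = 0.0246), against -0.36 with all 9 arrays, and was chosen after its value was seen. Of 13 measured genes for the turnover and modification of AP-1 proteins, the kinase GSK3B, which marks JUN for destruction, fell by 0.82 with Qmimic in that fit (adjusted p = 0.00452), against -0.66 (adjusted p = 0.155) with all 9 arrays. Of its 5 probe sets, 3 were called lower in the second fit. The ubiquitin ligase genes COP1, CUL4A and FBXW7 differed by 0.30, 0.27 and 0.18 over both mimics, and by 0.18, 0.04 and 0.06 without AllStar replicate 3. The probe sets of CUL4A, and those of FBXW7, had differences of both signs in each fit. In this turnover list 1 of 13 genes had an unadjusted limma p under 0.05 over both mimics in each fit. The list median was 0.15, and 0.03 without AllStar replicate 3.

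**Figure D4:**
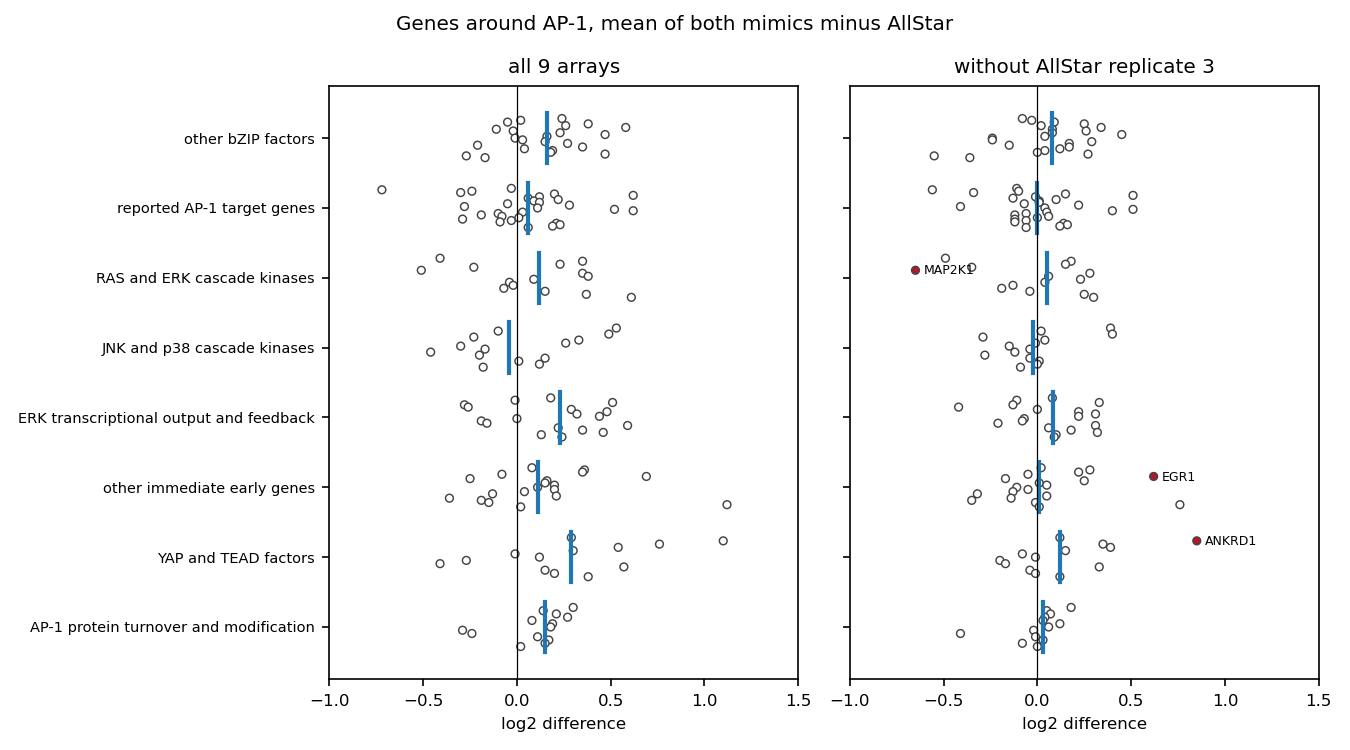
Log2 difference of the mean of both mimics from AllStar (x axis) for the measured genes of 8 lists around AP-1 (y axis; 1 circle per gene, spread vertically within its list), with all 9 arrays (left) and without AllStar replicate 3 (right); blue bars are list medians and red filled circles were called. MAP2K1, EGR1 and ANKRD1 are filled, in the right panel only.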

How the data were processed

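Total RNA from 9 replicates of transfected MDA-MB-231 cells was hybridised to HG-U133 Plus 2.0 arrays, 3 per group, grouped by the labels. Per the submitters' processing notes, the authors used RMA and limma, both without a stated version, and the deposited table holds RMA values on the log2 scale. RMA corrects background, quantile normalises and summarises probes, so array medians are nearly equal and a change in total RNA cannot be seen. The number of arrays limits the precision. Of 54675 probe sets, 62 controls were set aside; no filter on low values was applied. Gene names came from the array annotation given with the series.

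A linear model with 1 mean per group was fitted to all 54613 probe sets with limma 3.58.1 in R 4.3.3 (eBayes), with all 9 arrays and again without AllStar replicate 3; every adjusted p is Benjamini-Hochberg over all of them. In simulated data of 54613 probe sets, 200 were moved by 1 on the log2 scale with Qmimic, all drawn from those of low spread. The model called 198 of them for Qmimic against AllStar. The simulated noise was independent and held no outlying array, so this count does not give the power in these data. There the same comparison called 0 probe sets with all 9 arrays. Alternatives were array weights, cyclic loess, repeated quantile normalisation, median centring, an intensity trend, a mean level of at least 6, only the groups compared, a replicate block, other thresholds and single arrays left out. The text names all members, of each list up to 4 genes with the smallest p over both mimics, and the 8 and 4 genes with the highest and lowest correlation with FOSL1. The members and lists were chosen with earlier results of these data known, and the lists were written from general knowledge. No sets were tested, and no explanation was weighed.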

Additional observations from a re-analysis of the deposited data

Results flagged for a closer look

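For 2 genes of the lists, the effects of the mimics differed from each other in the test of that difference without AllStar replicate 3. CXCL8, the chemokine interleukin 8, differed by -0.9 (Qmimic minus Dmimic; limma adjusted p = 0.00271), and by the same value with all 9 arrays at an adjusted p of 0.144; it was chosen after its values were seen. Against AllStar it differed by -0.46 with Qmimic and 0.44 with Dmimic in the fit without that array. GSK3B differed by -0.84 between the mimics (adjusted p = 0.00216, and 0.333 with all 9 arrays), and against AllStar by -0.82 with Qmimic and 0.01 with Dmimic.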

How the results depend on the processing

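FOSL1 had a negative difference from AllStar under every alternative run for the 3 comparisons with AllStar. The call over both mimics was kept under 13 of 25 alternatives and lost under 12. The losses included leaving out any 1 array other than AllStar replicate 3. They also included median centring (-0.98, adjusted p = 0.0645) and a replicate block (-1.04, adjusted p = 0.101). The cause was not tested. Array weights, cyclic loess and repeated quantile normalisation brought calls for Qmimic (-1.13, -1.21 and -1.17) and for Dmimic (-1.07, -1.19 and -1.14). The weight of AllStar replicate 3 was 0.06, so array weights came close to leaving that array out. Leaving out 1 array gave -1.14 to -0.94 for Qmimic, -1.16 to -0.87 for Dmimic and -1.13 to -0.96 over both; leaving out 1 more beside AllStar replicate 3 gave -1.20 to -1.02, -1.24 to -0.95 and -1.19 to -1.05. Member probe sets called for Qmimic numbered 2 with array weights and 1 with cyclic loess or repeated quantile normalisation; for Dmimic 1 with each; over both mimics 2 with each, and 0 with median centring, the block or a log2 threshold of 1.5. Single omissions gave 0 to 2 for each of these comparisons, and with a further array left out beside AllStar replicate 3 the counts were 0 to 2, 0 to 3 and 0 to 2. No setting called a member between Qmimic and Dmimic (0 in all 28). Over all probe sets, calls over both mimics went from 44 to 546 with array weights, 374 with cyclic loess, 243 with repeated quantile normalisation, 121 with an intensity trend, 212 at a mean level of at least 6, 0 with median centring and 394 without AllStar replicate 3. For Qmimic they went from 0 to 594, 131 and 59 with array weights, cyclic loess and repeated quantile normalisation, and 295 without that array; for Dmimic from 3 to 696, 234, 103 and 472; between the mimics from 0 to 58, 15, 15 and 44. The intensity trend gave 16 for Dmimic.

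Whether the replicate numbers pair arrays was not settled. Deviations from the group means correlated at -0.275 to 0.219 over the 9 pairs of arrays that share a number, above 0.1 in 3. All 3 of those pairs hold an AllStar array, whose deviations depend on the outlying replicate 3. With the block and without AllStar replicate 3, FOSL1 was called for Qmimic (-1.08, adjusted p = 0.045), which made 1 member call. Over all probe sets the block left 1 call for Qmimic, 0 for Dmimic and 1 over both mimics.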
